A study of Mus musculus with 83 samples.

Results

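The 7 genes described here carry out or feed progesterone synthesis: Star, Cyp11a1, Hsd3b1, Fdx1, Fdxr, Scarb1 and Akr1b7. They were taken by name from a table of 21572 gene rows, and all 7 were among the 11889 genes that passed the filter on low counts. Akr1b7 passed it only through its 4 h and 8 h groups. The libraries came from 83 single ovarian follicles of wild-type CD-1 mice, an outbred strain. Follicles entered culture fresh or after vitrification, a cooling into glass without ice, and grew for 8 days in 0.5% alginate with recombinant follicle-stimulating hormone (FSH). Those of 300 to 350 µm were then given 10 ng/ml epidermal growth factor (EGF), 10 mIU/ml FSH and 1.5 IU/ml human chorionic gonadotropin (hCG) in fresh medium, and collected 0, 1, 4 or 8 h later. All groups share this culture, and the 0 h libraries are the baseline before hCG. Since EGF, FSH and hCG were given together, the effect of hCG is not separated from that of EGF or of the change of medium. Fresh follicles numbered 18, 6, 7 and 4 at the successive times, and vitrified follicles 15, 14, 7 and 12. Library titles place all 0 h libraries on a plate of their own, and 9 of the vitrified libraries of each of 1 h and 8 h on another (the vitrified-only plate). The other 1, 4 and 8 h libraries sat on a plate shared by fresh and vitrified follicles, which held 5, 7 and 3 vitrified libraries at these times. No plate row held follicles of more than 1 group. Within the shared plate the sample-sheet numbers of the titles repeat between the rows of fresh 4 h and 8 h, and at 1 h between those of fresh and vitrified follicles. Such rows seem to come from different sheets, and the labels do not say which sheet held the others. In the comparisons of fresh 4 h with 8 h and of vitrified with fresh at 1 h, sheet and group cannot be told apart, and for the other comparisons within that plate the part of the sheet was not tested.

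Steroid synthesis starts from cholesterol. Scarb1 is the scavenger receptor that takes up cholesteryl ester from high-density lipoprotein, and Star moves cholesterol to the inner mitochondrial membrane, the step that limits the rate of acute steroid production. There Cyp11a1 cleaves the side chain to give pregnenolone, with electrons that the reductase Fdxr draws from NADPH and the small iron-sulphur protein Fdx1 carries to the enzyme. Hsd3b1 turns pregnenolone into progesterone. Akr1b7 is an aldo-keto reductase that reduces isocaproaldehyde, the by-product of side-chain cleavage. In granulosa cells luteinizing hormone, whose receptor hCG binds, is known to act largely through cAMP and to switch the follicle from estradiol to progesterone production.

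RefSeq promoter windows (GRCm38.p6, from 250 bases before to 50 bases after the start site) matched 5 of the 7 genes, with 2 windows for Cyp11a1 and none for Star or Scarb1. Those of 3 genes are shown without the part after the start site, since the strongest contrasts below concern them: Akr1b7 was near 0 until after 1 h, and Fdx1 and Fdxr changed in opposite directions. Capitals mark every match, on either strand, to the motifs named below.
Akr1b7, chr6:34412112-34412361, plus strand: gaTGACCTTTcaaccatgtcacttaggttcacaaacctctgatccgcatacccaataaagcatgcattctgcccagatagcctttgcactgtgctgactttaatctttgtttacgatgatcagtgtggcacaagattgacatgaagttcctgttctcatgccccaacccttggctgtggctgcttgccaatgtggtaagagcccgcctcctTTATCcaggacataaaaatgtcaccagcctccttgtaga
Fdx1, chr9:51963603-51963852, minus strand: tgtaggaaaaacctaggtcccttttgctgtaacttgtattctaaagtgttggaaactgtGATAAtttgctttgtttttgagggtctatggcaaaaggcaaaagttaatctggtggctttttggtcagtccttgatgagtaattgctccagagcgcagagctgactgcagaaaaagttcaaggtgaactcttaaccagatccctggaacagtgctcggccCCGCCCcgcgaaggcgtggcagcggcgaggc
Fdxr, chr11:115276970-115277219, minus strand: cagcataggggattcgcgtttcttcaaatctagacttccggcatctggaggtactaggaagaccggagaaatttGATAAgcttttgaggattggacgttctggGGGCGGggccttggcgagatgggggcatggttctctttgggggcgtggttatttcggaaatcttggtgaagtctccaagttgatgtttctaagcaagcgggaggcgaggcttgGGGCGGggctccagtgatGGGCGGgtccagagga
The Akr1b7 window held the element of the orphan receptor NR4A, AAAGGTCA, whose first match base lies 248 bases before the start site on the opposite strand, and which contains the NR5A site AAGGTCA. Of 32851 promoter windows of this length, 1.51% held the former and 4.72% the latter. A GATA site, GATAA, was found in the windows of Akr1b7, Fdx1, Fdxr and Hsd3b1, against 25.4% of all windows. The Sp1 box GGGCGG occurred 3 times in the Fdxr window and 1 time each in that of Fdx1 and the upstream one of Cyp11a1, against 35.7% of all windows. That upstream Cyp11a1 window (chr9:57997774-57998073) also held the short cAMP response element core TGACG (20.8% of all windows), and the other Cyp11a1 window (chr9:58014702-58015001) a C/EBP site, TTGCNNAA (10.8%). Neither lies at the annotated start of Cyp11a1 (58006411). The former spans the start of the overlapping noncoding gene Gm17322, and the latter lies inside Cyp11a1. The full cAMP response element TGACGTCA (1.79%), the AP-1 site TGANTCA (7.81%) and the sterol element core TCACNCCAC (1.24%) were in none of the 6 windows. A match is a run of letters and not evidence of binding.

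Total estimated counts per library ranged from 682200 to 6504590. The 5 vitrified 0 h libraries of plate row H were the shallow end of their time, with totals of 682200 to 1346280 against 1541700 to 6504590 in the other 0 h libraries, and their median correlation with libraries of their own group was 0.897 to 0.917. Member differences between vitrified and fresh follicles at 0 h are therefore also given without them, for Star and where the call or the sign changed. The calls of other genes at 0 h include these libraries. Over all genes tested, 115 were called between vitrified and fresh follicles at 0 h with them and 60 without. Granulosa markers took a mean of 9.38% of counts in fresh and 9.74% in vitrified follicles at 0 h, and 1.75% and 1.79% at 8 h on the shared plate. Within that list Amh had a count in 29 of 83 libraries, while Fshr and Foxl2 each had one in 81. Oocyte markers took at most 0.0305% of counts in any library. In such bulk samples fewer cells of a type and less RNA per cell cannot be told apart. Levels below are CPM values, the counts set against the scaled library total, which compare 1 gene between libraries. Fold changes are log2 values with standard errors (SE) and Benjamini-Hochberg adjusted p-values from edgeR's quasi-likelihood test over all 11889 genes.

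Calls of Akr1b7 between an early and a late time are given as a description, since it entered the test only through its late groups and so had to differ. All members but Hsd3b1 and Akr1b7 passed the test in the first hour, and no member called in both kinds of follicle moved in opposite directions. From 0 h to 1 h in fresh follicles 4 of the 7 rose (Star, Fdx1, Cyp11a1 and Scarb1), where 19% of all genes tested did, and Fdxr fell, where 23.1% did. In vitrified follicles Star, Fdx1, Cyp11a1 and Scarb1 rose and Fdxr fell as well, against 21.5% of genes higher and 22% lower. From 1 h to 4 h in fresh follicles Scarb1 and Akr1b7 rose (21.9% of all genes) and Hsd3b1 and Fdx1 fell (24.5%). In vitrified follicles Scarb1, Akr1b7 and Fdxr rose (20.6%) and Hsd3b1 and Fdx1 fell (25.9%). From 4 h to 8 h in fresh follicles Fdxr and Akr1b7 rose (20.8%), while Star, Fdx1 and Scarb1 fell (15.7%). In vitrified follicles Fdxr and Akr1b7 rose (22%), and Fdx1 and Scarb1 fell (15%). Since all 0 h libraries were on their own plate, the step from 0 h to 1 h and a plate difference cannot be told apart. Scaling by total counts alone lowered the median change of all genes from 0 h to 1 h to -0.60 in fresh and -0.65 in vitrified follicles, from -0.11 and -0.05, and raised it from 4 h to 8 h to 0.75 and 0.73, from 0.12 and 0.17. The share of all calls that were higher then moved from 45.1% to 18% and from 49.3% to 19% at the first step, and from 57.0% to 87.7% and from 59.4% to 85.0% at the last. None of the member calls in these 4 comparisons changed direction with it, and the call of Cyp11a1 in vitrified follicles was lost (1.12 ± 0.55, adjusted p = 0.0785).

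**Figure D1:**
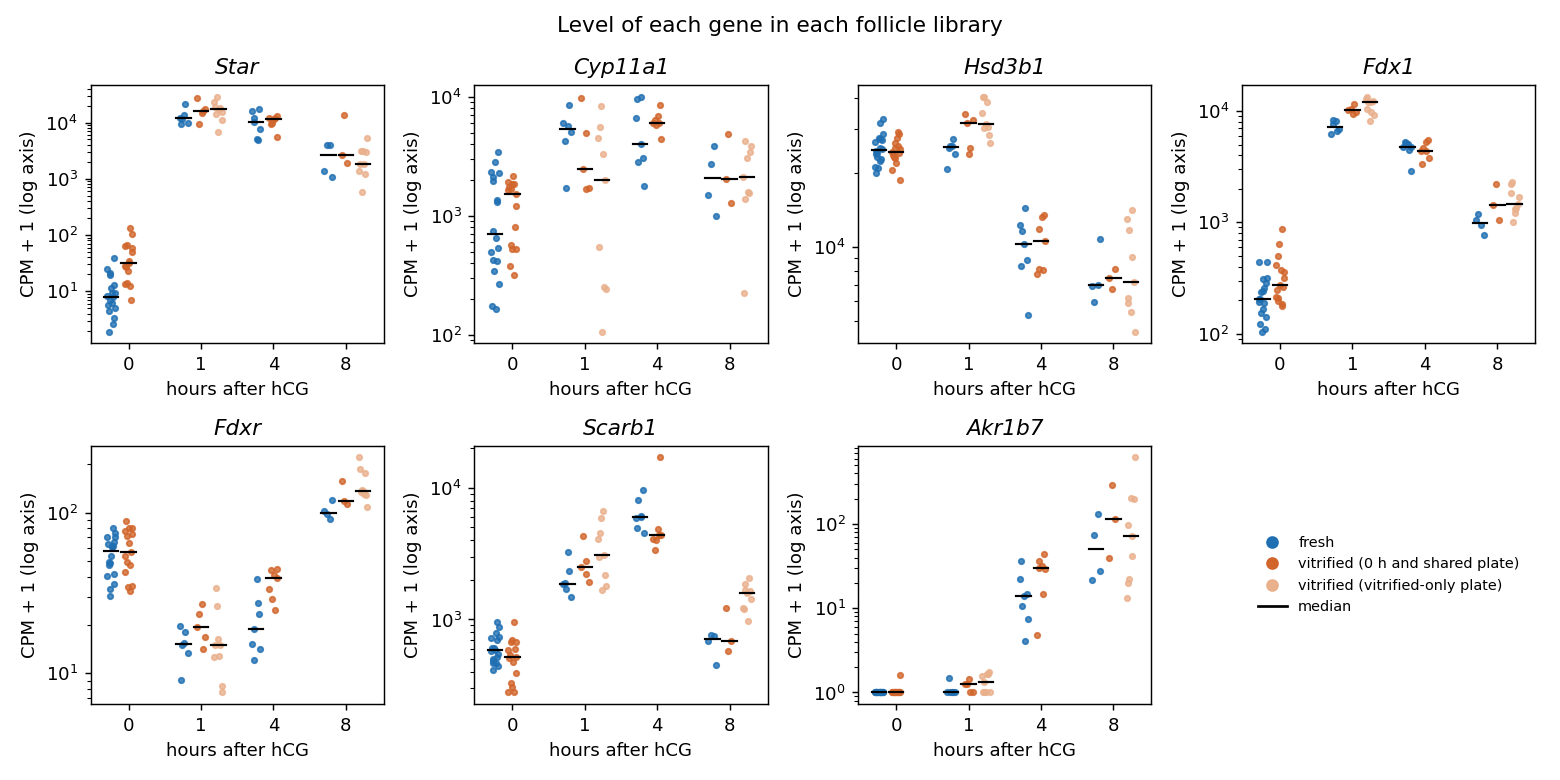
Level of the 7 genes in all 83 libraries, as CPM + 1 on a log axis against hours after hCG, with 1 panel per gene, 1 point per follicle and a black line at the median of each set. Star stands between 6845 and 28792 CPM at 1 h against at most 131 CPM at 0 h, Hsd3b1 steps down between 1 h and 4 h, and Akr1b7 leaves the floor at 4 h.

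Star (ENSMUSG00000031574, chr8:25806555-25815982, plus strand, GRCm38) had the largest change of the 7 in the first hour. At 0 h it was at 0.910, 7.03 and 37.4 CPM (lowest, median and highest of 18) in fresh follicles and at 5.87, 30.9 and 131 CPM in the 15 vitrified ones. At 1 h the fresh values were 9517, 11886 and 21262 CPM (n = 6), and the 5 vitrified libraries of the shared plate had 26756, 15856, 9580, 17159 and 14676 CPM. No library of 1 h overlapped one of 0 h in either kind of follicle. The rise was 10.36 ± 0.48 in fresh follicles (adjusted p = 3.14e-31) and 8.60 ± 0.49 in vitrified ones (adjusted p = 8.96e-26).
At 4 h the values were 4932, 10404 and 17427 CPM in fresh and 5420, 11627 and 13136 CPM in vitrified follicles (n = 7 each), and both sets overlapped those of 1 h. The step from 1 h to 4 h did not pass the test (-0.31 ± 0.51 and -0.68 ± 0.53), although the vitrified one did in a fit of only the compared sets (-0.66 ± 0.23, adjusted p = 0.0238). At 8 h the 4 fresh libraries had 1356, 3928, 3940 and 1068 CPM, all below every fresh library of 4 h, a fall of 2.03 ± 0.63 on the log2 scale (adjusted p = 0.00768). By the authors' TPM values, which allow for transcript length, the 2 sets overlapped (677 to 2227 TPM at 8 h and 1846 to 5344 TPM at 4 h). The call was lost by limma on log2(TPM + 0.1), at -1.33 ± 0.61. The 3 vitrified libraries of the shared plate had 2625, 1915 and 13642 CPM, the last of them above every vitrified library of 4 h. That 1 library decided the vitrified result. With it the step was -0.79 ± 0.66 (adjusted p = 0.360), and without it -2.16 ± 0.82 (adjusted p = 0.0385). It was also called when the vitrified-only libraries were joined in, with an additive plate term (-1.32 ± 0.52, adjusted p = 0.0328) or none (-1.68 ± 0.44, adjusted p = 0.00108). On the vitrified-only plate Star fell from 6845, 17109 and 28792 CPM at 1 h to 570, 1848 and 5364 CPM at 8 h, with no overlap by CPM (-2.85 ± 0.46, adjusted p = 1.82e-07, n = 9 each). By TPM these sets overlapped, with a lowest value of 2311 TPM at 1 h and a highest of 2666 TPM at 8 h.

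Scarb1 (ENSMUSG00000037936, chr5:125277087-125341094, minus strand) rose in the first hour, rose further to 4 h and then came back down. Fresh follicles had 410, 582 and 963 CPM at 0 h, 1493, 1873 and 3273 CPM at 1 h and 4542, 6038 and 9595 CPM at 4 h. Each of these sets lay wholly above the one before it (1.78 ± 0.22, adjusted p = 9.59e-11, then 1.62 ± 0.29, adjusted p = 2.23e-06). At 8 h the 4 fresh libraries were at 684, 744, 767 and 451 CPM, back in the range of 0 h (-3.29 ± 0.37, adjusted p = 1.28e-11).
In vitrified follicles Scarb1 went from 278, 518 and 950 CPM at 0 h to 2490, 2214, 4286, 1908 and 2760 CPM at 1 h (2.39 ± 0.24, adjusted p = 1.77e-14). At 4 h it was at 3376, 4368 and 17008 CPM, and the highest library stood far from the next one, at 4826 CPM. The step from 1 h to 4 h was 1.14 ± 0.30 (adjusted p = 0.00125), but 0.62 ± 0.27 without that library (adjusted p = 0.0535). At 8 h the libraries of the shared plate had 1211, 685 and 576 CPM (-2.87 ± 0.41, adjusted p = 2.51e-08). The Scarb1 span holds the unspliced model Gm42633 on the same strand, and reads there could not be assigned with certainty.

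Cyp11a1 (ENSMUSG00000032323, chr9:58006411-58027023, plus strand), the side-chain cleavage enzyme, varied widely between follicles of a group. At 0 h it ranged from 163 to 3420 CPM in fresh follicles (median 698) and from 315 to 2158 CPM in vitrified ones (median 1509). That vitrified median is the lowest value of row H (1509 to 1857 CPM, n = 5), and row G had a median of 684 CPM (n = 10). The difference between vitrified and fresh follicles was 0.04 ± 0.41 (adjusted p = 0.991), and -0.26 ± 0.48 without row H. At 1 h fresh libraries had 1725, 5412 and 8550 CPM, a rise of 2.11 ± 0.50 (adjusted p = 4.07e-04), although the ranges overlapped.
The 5 vitrified libraries of 1 h had 9792, 4991, 2488, 1720 and 1691 CPM, a rise of 1.73 ± 0.56 (adjusted p = 0.00814). Without the first of them it was 1.13 ± 0.61 (adjusted p = 0.131), so that the call rests on 1 library. Between 1 h and 4 h Cyp11a1 did not pass the test (0.05 ± 0.65 in fresh and 0.61 ± 0.69 in vitrified follicles). At 8 h fresh libraries had 1492, 3872, 2696 and 990 CPM and vitrified ones 2051, 1273 and 4866 CPM. Values at 4 h had reached 10021 CPM in fresh and 8604 CPM in vitrified follicles, yet the step to 8 h passed in neither (-1.26 ± 0.77, adjusted p = 0.198, and -1.21 ± 0.86, adjusted p = 0.275). The vitrified step was called in a fit of only the compared sets (-1.25 ± 0.32, adjusted p = 0.00606) and with no plate term (-1.36 ± 0.54, adjusted p = 0.0326). The long noncoding RNA Gm17322 overlaps the start of the gene on the same strand, so that reads there are uncertain.

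The electron partners of Cyp11a1 moved apart. Fdx1 (ENSMUSG00000032051, chr9:51943306-51963556, minus strand) stood at 103, 202 and 442 CPM in fresh follicles at 0 h and at 6178, 7279 and 8253 CPM at 1 h (5.01 ± 0.21, adjusted p = 1.13e-36). It then fell in both later steps, to 2911, 4775 and 5329 CPM at 4 h (-0.66 ± 0.26, adjusted p = 0.0305) and to 1046, 944, 1193 and 770 CPM at 8 h (-2.22 ± 0.33, adjusted p = 4.27e-08). No 2 successive fresh sets overlapped.
Vitrified follicles went from 177, 274 and 864 CPM to 10343, 11680, 10543, 9904 and 9365 CPM at 1 h (4.90 ± 0.23, adjusted p = 2.36e-33). They reached 3343, 4394 and 5489 CPM at 4 h (-1.21 ± 0.27, adjusted p = 1.40e-04) and 1420, 1050 and 2206 CPM at 8 h (-1.52 ± 0.35, adjusted p = 3.34e-04). These sets did not overlap either.
Fdxr (ENSMUSG00000018861, chr11:115268024-115277050, minus strand) took the opposite course. Fresh values were 29.4, 56.6 and 79.1 CPM at 0 h and 8.02, 14.2 and 18.7 CPM at 1 h, a fall of 1.93 ± 0.24 on the log2 scale (adjusted p = 6.95e-11). At 4 h they were 11.1, 17.9 and 37.4 CPM (0.53 ± 0.26, adjusted p = 0.0915), and at 8 h 101, 89.6, 96.8 and 118 CPM, above every fresh library of all earlier times (2.31 ± 0.27, adjusted p = 2.19e-11).
In vitrified follicles Fdxr fell from 31.3, 56.2 and 87.3 CPM to 18.4, 13.05, 22.2, 15.8 and 26.1 CPM in the first hour (-1.60 ± 0.25, adjusted p = 7.87e-08). It rose to 23.8, 38.2 and 43.3 CPM at 4 h (0.88 ± 0.27, adjusted p = 0.00418) and to 156, 112 and 117 CPM at 8 h (1.85 ± 0.28, adjusted p = 9.56e-08). The ratio of the authors' TPM values (a level that allows for transcript length) within a library shows both courses together. The median ratio of Fdx1 to Fdxr in fresh follicles was 1.87 at 0 h, 247 at 1 h, 99.3 at 4 h and 4.65 at 8 h. In vitrified follicles it was 2.26, 250, 60.1 and 4.16 on the same plates, and 430 and 4.52 at 1 h and 8 h on the vitrified-only plate. Libraries of 1 h lay between 141 and 833 and those of 0 h between 0.965 and 8.62, so that the 2 times did not overlap.

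**Figure D2:**
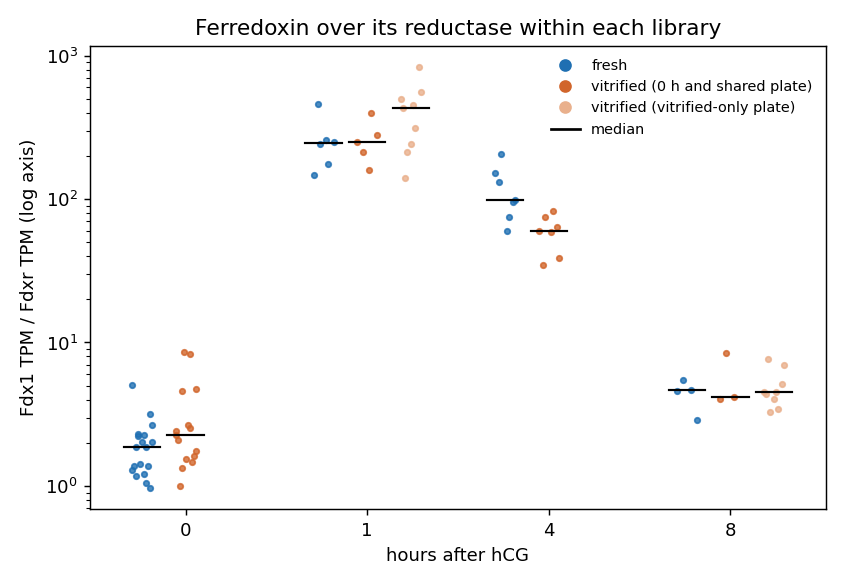
Ratio of Fdx1 TPM to Fdxr TPM in each library on a log axis, against hours after hCG, with 1 point per follicle and a black line at the median. The fresh medians go from 1.87 at 0 h to 247 at 1 h and return to 4.65 at 8 h, and the vitrified sets lie beside them.

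Hsd3b1 (ENSMUSG00000027871, chr3:98852194-98859794, minus strand), which makes progesterone from pregnenolone, was high before hCG and fell between 1 h and 4 h. Fresh follicles had 19988, 24715 and 33038 CPM at 0 h and 20704, 25414 and 27488 CPM at 1 h, with a step of -0.03 ± 0.15 (adjusted p = 0.888). At 4 h they had 5307, 10247 and 14374 CPM, below every library of 1 h (-1.29 ± 0.18, adjusted p = 1.73e-09). At 8 h the values were 6918, 7028, 5966 and 10725 CPM (-0.40 ± 0.20, adjusted p = 0.103). Without the highest of these 4 the step was -0.63 ± 0.22 and was called (adjusted p = 0.0190).
Vitrified follicles had 18588, 24331 and 29242 CPM at 0 h and 34615, 25237, 31756, 32640 and 23732 CPM at 1 h (0.28 ± 0.16, adjusted p = 0.158). That step was called higher with no plate term (0.39 ± 0.12, adjusted p = 0.00292) and in a fit of only the compared sets (0.29 ± 0.11, adjusted p = 0.0362). They fell to 7735, 10565 and 13403 CPM at 4 h (-1.51 ± 0.18, adjusted p = 3.78e-11) and stood at 7449, 8112 and 6709 CPM at 8 h (-0.49 ± 0.22, adjusted p = 0.0741), a step that was called with an additive plate term (-0.48 ± 0.18, adjusted p = 0.0238) and without the vitrified-only plate (-0.49 ± 0.19, adjusted p = 0.0390). The 1 h and 4 h sets did not overlap. The sign of the step from 4 h to 8 h depended on the scaling. It was 0.26 in fresh and 0.11 in vitrified follicles with total counts alone. By limma on log2(TPM + 1) it was 0.40 and 0.21, and none of these was called. Scaled by total counts alone, Hsd3b1 passed as lower in the first hour in fresh follicles (-0.51 ± 0.15, adjusted p = 0.00258), a step over which that scaling moved the median gene by a like amount. Transcripts of Hsd3b6 and Hsd3b2 are 88.7% and 88.3% identical to that of Hsd3b1 over the aligned part, so the split of reads between them is uncertain. Both copies were listed at 17.8 and 12.5 CPM on average in fresh follicles at 0 h.

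Akr1b7 (ENSMUSG00000052131, chr6:34412334-34423142, plus strand) appeared last. It had no count in any of the 18 fresh libraries of 0 h, 1 count in the 15 vitrified ones, and 1 count in the 6 fresh libraries of 1 h. The 5 vitrified libraries of 1 h on the shared plate had 0.275, 0, 0.271, 0 and 0.434 CPM. At 4 h every library had it, at 3.04, 13.1 and 35.9 CPM in fresh and 3.78, 29.1 and 43.5 CPM in vitrified follicles.
Against 1 h the summed counts of 4 h were 183-fold higher in fresh follicles (exact 95% interval 32.5 to 7274, counting error only) and 112-fold higher in vitrified ones (43.4 to 413). Against fresh 0 h, taken at a floor of 3 counts over the group, the summed counts of fresh 4 h were 282-fold higher. The exact 95% interval for this ratio, without the floor and with counting error only, began at 227-fold.
At 8 h fresh libraries had 20.6, 132, 73.4 and 27.1 CPM (2.13 ± 0.60, adjusted p = 0.00404) and vitrified ones 38.6, 113 and 288 CPM (2.48 ± 0.62, adjusted p = 0.00105). Each of these steps lost its call without its highest library (1.45 ± 0.65, adjusted p = 0.0801, and 1.59 ± 0.69, adjusted p = 0.0720). The vitrified-only plate gave 12.1, 70.9 and 617 CPM at 8 h against at most 0.731 CPM at 1 h. Akr1b10 and Akr1b8 transcripts are 89.4% and 87.0% identical to that of Akr1b7 over the aligned part, and the pseudogene Gm13857 overlaps it on the other strand in a kit that does not mark strand. Akr1b8, an aldo-keto reductase of the same cluster, was already at 6.48 CPM in fresh follicles at 0 h, where Akr1b7 had no count.

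**Figure D3:**
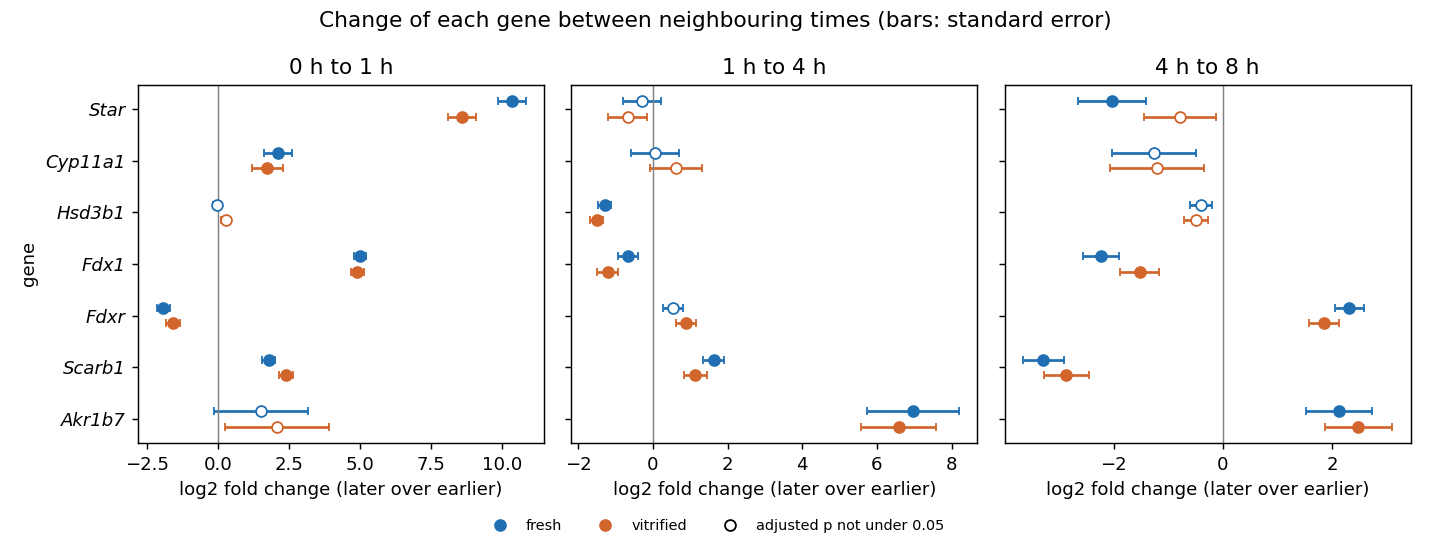
Log2 fold change of each gene (later over earlier time) with its standard error for the 3 steps between neighbouring times, in fresh and vitrified follicles of the 0 h and shared plates. Open points did not pass an adjusted p of 0.05. Star leads the first step at 10.36 and 8.60, and Fdxr lies on the other side of 0 from Fdx1 in each step.

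Calls between vitrified and fresh follicles were made at 0 h only. At that time 2 of the 7 were called, both higher in vitrified follicles, where 0.967% of all genes tested were called in either direction. Star was higher by 2.13 ± 0.36 (adjusted p = 1.18e-04, means 43.7 ± 36.1 and 10.1 ± 9.42 CPM, SD), with 14 of 15 vitrified libraries above the fresh median and 6 above every fresh library. Without the libraries of row H it was higher by 1.86 ± 0.38 (adjusted p = 0.00383). Fdx1 was higher by 0.61 ± 0.17 (adjusted p = 0.0478), and without row H by 0.11 ± 0.16 (adjusted p = 0.912), so that its call rests on those 5 shallow libraries. They had 358 to 864 CPM of Fdx1, against 177 to 375 CPM in the 10 vitrified libraries of row G and 103 to 442 CPM in fresh ones. Row H also had 278 to 389 CPM of Scarb1 against 476 to 950 CPM in row G. By limma on log2(TPM + 1) Fdx1 was not called (0.29 ± 0.15, adjusted p = 0.163), and Scarb1 was called lower in vitrified follicles (-0.53 ± 0.19, adjusted p = 0.0498). Without row H the Scarb1 difference was 0.03 ± 0.19. The other 5 genes lay between -0.23 ± 0.18 (Scarb1) and 0.67 ± 1.01 (Akr1b7).
At 1 h none of the 7 was called (0.555% of all genes), and the values ran from -0.34 ± 0.71 (Cyp11a1) to 0.50 ± 0.28 (Fdx1), apart from Akr1b7 with its few counts. By CPM all 5 vitrified libraries had more Fdx1 than any of the 6 fresh ones, but the difference did not pass the test (adjusted p = 0.547). On the TPM scale the sets overlapped, at 987 to 1616 TPM in vitrified and 1082 to 1379 TPM in fresh follicles. How many of all genes had sets without overlap was not counted. At 4 h none was called (0.118%), and the largest differences were those of Akr1b7 (0.86 ± 0.56, adjusted p = 0.838) and Fdxr (0.80 ± 0.24, adjusted p = 0.257), with all 7 vitrified libraries above the fresh median of Fdxr. For Scarb1 5 of the 7 vitrified libraries lay below every fresh one and 1, at 17008 CPM, above every fresh one. Its difference was -0.10 ± 0.27, and -0.62 ± 0.25 without that library (adjusted p = 0.514). At 8 h none was called (2.06%), with Star at 1.24 ± 0.70 (adjusted p = 0.534). Without the vitrified library of 13642 CPM the Star difference was -0.16 ± 0.77. Scarb1 differed by 0.32 ± 0.38 at 8 h. With no plate term, which joins in the vitrified-only libraries, it was called higher in vitrified follicles (1.02 ± 0.32, adjusted p = 0.0395). Scaling by total counts alone moved the share of all calls that were higher in vitrified follicles from 55.7% to 21.9% at 0 h and from 93.9% to 69.0% at 1 h.

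**Figure D4:**
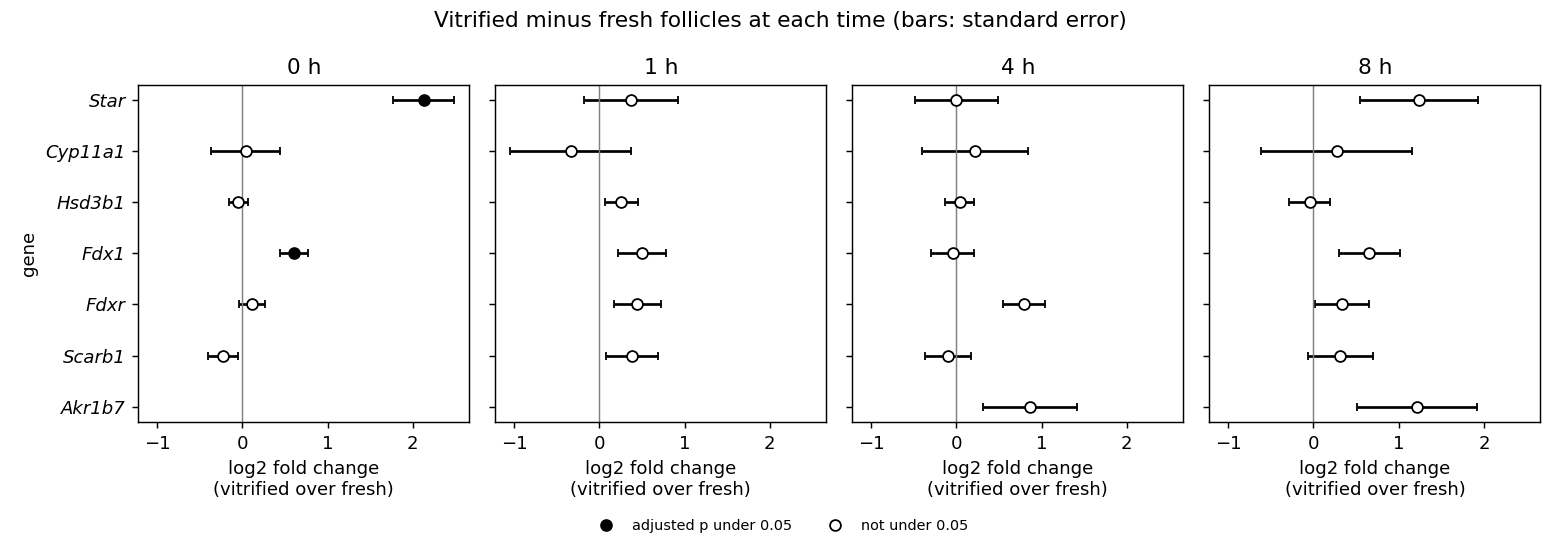
Log2 fold change of vitrified over fresh follicles with its standard error, for each gene at 0, 1, 4 and 8 h. Filled points passed an adjusted p of 0.05, which only Star (2.13) and Fdx1 (0.61) did, both at 0 h, and Akr1b7 is drawn at 4 and 8 h only.

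The response itself was then compared, as the vitrified minus the fresh step. None of the 7 genes was called at any step, where 0.160%, 0.0421% and 0.993% of all genes were called for the first, second and last step. With total counts alone the share of these calls that were higher moved from 89.5% of 19 to 66.7% of 6 for the first step. The largest value was that of Star in the first hour, -1.76 ± 0.67 (unadjusted p = 0.0107, adjusted p = 0.47). Without row H it was -1.49 ± 0.68 (adjusted p = 0.584). Star itself differed by 2.13 ± 0.36 at 0 h and by 0.37 ± 0.55 at 1 h. At the last step Star gave 1.24 ± 0.85 (adjusted p = 0.785), and -0.15 ± 0.90 without the library of 13642 CPM. A p that misses the threshold does not show that the steps were alike.

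On the vitrified-only plate the step from 1 h to 8 h could be read in 9 libraries a time. Fdxr and Akr1b7 rose there (32% of all genes did) and Star, Hsd3b1, Fdx1 and Scarb1 fell (27.4%). On the shared plate Fdxr and Akr1b7 rose (26.2%) and Hsd3b1, Fdx1 and Scarb1 fell (23.9%), while Star gave -1.47 ± 0.71 (adjusted p = 0.0773), and -2.80 ± 0.88 without the library of 13642 CPM (adjusted p = 0.00725). Fdxr rose by 3.28 ± 0.23 on the first and by 2.73 ± 0.31 on the second, and Hsd3b1 gave -1.97 ± 0.15 and -2.0 ± 0.25. The fall of Scarb1 was -1.27 ± 0.24 on the first (adjusted p = 4.28e-06), but -0.46 ± 0.23 with total counts alone and -0.096 ± 0.25 by limma on log2(TPM + 1), neither of them called. On the shared plate it was -1.73 ± 0.39 (adjusted p = 1.64e-04). By limma on log2(TPM + 1) it was -0.80 ± 0.39 there and not called (adjusted p = 0.0793). Cyp11a1 passed on neither plate (-0.22 ± 0.55 on the vitrified-only plate and -0.60 ± 0.87 on the shared one). By limma on log2(TPM + 1) it was called higher at 8 h on the vitrified-only plate (1.68 ± 0.57, adjusted p = 0.00725). With total counts alone it was 0.59 ± 0.54 there and not called. Scaling by total counts alone moved the share of calls that were higher from 53.9% to 80.3% on the vitrified-only plate and from 52.3% to 78.2% on the shared one. Between the plates themselves none of the 7 was called at 1 h (1.37% of all genes were) or at 8 h (23.4%). The largest plate differences were those of Star (-1.36 ± 0.57, adjusted p = 0.0746) and Scarb1 (0.88 ± 0.35, adjusted p = 0.0608) at 8 h. Scarb1 had 967 to 2046 CPM on the vitrified-only plate then, and 576 to 1211 CPM on the shared one.

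Per length, on the TPM scale, the order of the genes changed with time. Hsd3b1 was the most abundant member in all 33 libraries of 0 h, with medians of 12332 TPM in fresh and 9318 TPM in vitrified follicles. Star was sixth of 7 by its median at 0 h (2.85 and 11.3 TPM) and second in all 20 libraries of 1 h, with medians of 4488 TPM in fresh and 4713 TPM in vitrified follicles of the shared plate. At 4 h the first place was shared. Hsd3b1 held it in 3 of 7 fresh libraries and 5 of 7 vitrified ones, with medians of 4512 and 4708 TPM against 3261 and 4120 TPM for Star. At 8 h Hsd3b1 was first in all 4 fresh libraries, ahead of Star (1540 TPM), Cyp11a1 (570 TPM) and Fdx1 (280 TPM). Across libraries TPM moves with Gm10800, a gene row that took 4.02% to 53.0% of it, and the order within a library does not depend on that row.

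In a list of 16 other genes of cholesterol handling (receptors, transport proteins and esterases), falls outnumbered rises from 1 h to 4 h, and rises outnumbered falls before and after. Of the 16, 5 rose and 2 fell in the first hour, in both fresh and vitrified follicles. Over all genes tested 19% rose and 23.1% fell in fresh follicles at this step, and 21.5% and 22% in vitrified ones. From 1 h to 4 h these shares were 21.9% and 24.5% in fresh and 20.6% and 25.9% in vitrified follicles, and from 4 h to 8 h 20.8% and 15.7%, and 22% and 15%. From 1 h to 4 h 3 rose and 8 fell in fresh follicles, and 4 rose and 9 fell in vitrified ones. The list's median was -0.71 and -0.68 there, beside -0.03 and -0.11 over all genes tested. From 4 h to 8 h 7 rose and 2 fell in fresh follicles and 9 rose and 2 fell in vitrified ones (medians 0.73 and 0.84, beside 0.12 and 0.17). Abca1, which exports cholesterol from cells, rose from 45.1 ± 14.6 CPM at 1 h to 353 ± 77.0 CPM at 4 h in vitrified follicles (SD, adjusted p = 2.17e-09). Nceh1, a cholesteryl ester hydrolase, fell from 13.3 ± 4.75 to 0.609 ± 0.777 CPM over this step in fresh follicles (adjusted p = 9.61e-15). Lipe, hormone-sensitive lipase, fell from 6.12 ± 2.37 to 0.450 ± 0.469 CPM in the first hour in vitrified follicles (adjusted p = 5.99e-10) and rose again in both later steps. Stard5, a sterol-binding relative of Star, rose from 4.02 ± 2.32 to 29.3 ± 15.9 CPM between 4 h and 8 h in fresh follicles (adjusted p = 1.58e-08). None of the 16 was called between vitrified and fresh follicles at any time.

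Of the other steroid enzymes, 13 of 15 listed could be tested. From 1 h to 4 h 8 fell in fresh and in vitrified follicles, and 1 and 2 rose. Over all genes 24.5% and 25.9% fell and 21.9% and 20.6% rose at this step, and the list medians of -0.95 and -1.45 stand beside -0.03 and -0.11. Hsd11b2, which inactivates glucocorticoid, fell from 153 ± 72.5 to 1.66 ± 1.22 CPM in vitrified follicles (adjusted p = 5.81e-20). Srd5a1, a steroid reductase, fell from 7.67 ± 3.13 to 0.0542 ± 0.144 CPM in fresh ones (adjusted p = 4.23e-11), and Cyp17a1, the androgen-making enzyme of theca cells, from 158 ± 93.4 to 19.2 ± 17.99 CPM (adjusted p = 0.00307). Akr1c18, which inactivates progesterone, was at 0.0691 ± 0.183 CPM at 4 h and 8.52 ± 12.3 CPM at 8 h in vitrified follicles (adjusted p = 8.37e-06), a mean below its SD. In the first hour 3 of the 13 rose and none fell in fresh follicles, and 4 rose and 1 fell in vitrified ones. In the last step 3 rose and 3 fell in fresh follicles, and 3 rose and 2 fell in vitrified ones. Over all genes 19% rose and 23.1% fell in the first hour in fresh follicles, and 21.5% and 22% in vitrified ones. The shares of the last step were 20.8% and 15.7% in fresh follicles, and 22% and 15% in vitrified ones. None of the 13 was called between vitrified and fresh follicles.

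Among 18 tested regulators of steroid genes (of 19 listed), 4 rose and 6 fell in the first hour in fresh follicles, and 7 rose and 6 fell in vitrified ones. All genes gave 19% higher and 23.1% lower in fresh and 21.5% and 22% in vitrified follicles. Crem, a cAMP-responsive transcription factor, rose from 2.59 ± 1.66 to 939 ± 290 CPM in vitrified follicles (adjusted p = 1.72e-44). Nr4a1, an orphan nuclear receptor, rose from 168 ± 251 to 30205 ± 2932 CPM (adjusted p = 7.93e-16). From 1 h to 4 h 3 rose and 10 fell in fresh follicles, and 3 rose and 12 fell in vitrified ones, with medians of -1.91 and -2.41 beside -0.03 and -0.11 over all genes, of which 24.5% and 25.9% fell. Fshr, the FSH receptor, fell from 102 ± 40.3 to 0.769 ± 0.682 CPM in fresh follicles (adjusted p = 4.90e-20). Prkar2b, a regulatory subunit of protein kinase A, fell from 2256 ± 3116 to 71.7 ± 47.2 CPM in vitrified ones (adjusted p = 2.94e-12). From 4 h to 8 h 3 rose and 5 fell in fresh follicles, and 2 rose and 5 fell in vitrified ones. Over all genes 20.8% rose and 15.7% fell at this step in fresh follicles, and 22% and 15% in vitrified ones. Between vitrified and fresh follicles 2 regulators were higher at 0 h (Fshr, 0.95 ± 0.21, adjusted p = 0.00543, and Srebf2, 0.35 ± 0.09, adjusted p = 0.0498), 2 at 1 h (Prkaca, 3.27 ± 0.75, adjusted p = 0.0144, and Prkar2b, 2.13 ± 0.52, adjusted p = 0.0260, both with vitrified means below their SD), none at 4 h and 1 at 8 h (Srebf2, 0.70 ± 0.20, adjusted p = 0.0479). Over all genes tested 0.967%, 0.555%, 0.118% and 2.06% were called at 0, 1, 4 and 8 h, in either direction. Without vitrified replicate 4 of 1 h the calls over all genes at that time went from 66 to 7. Without vitrified replicate 3 of 8 h those of 8 h went from 245 to 43. Whether the regulators named at these times stayed among them is not reported here. Srebf2 is a transcription factor of sterol-regulated genes, and Prkaca a catalytic subunit of protein kinase A.

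Of 7 relatives of Akr1b7 tested (of 8 listed aldo-keto reductases), 1 rose and 4 fell from 1 h to 4 h in fresh follicles, and 1 rose and 3 fell in vitrified ones, where 21.9% and 20.6% of all genes rose and 24.5% and 25.9% fell. With so few genes these counts are a description. Akr1c14 fell from 659 ± 307 to 6.61 ± 2.30 CPM in vitrified follicles (adjusted p = 1.65e-24). In fresh ones Akr1cl fell from 4625 ± 1098 to 186 ± 60.0 CPM (adjusted p = 2.03e-32) and Akr1c13 from 4.03 ± 3.07 to 0.0915 ± 0.242 CPM (adjusted p = 9.21e-04). From 4 h to 8 h 4 rose and none fell in fresh follicles, with Akr1b10 going from 0.752 ± 0.300 to 4.73 ± 2.04 CPM (adjusted p = 1.28e-04), and 5 rose and 1 fell in vitrified ones. In the first hour 1 rose and 1 fell in fresh follicles, and 1 rose and 2 fell in vitrified ones. Over all genes 20.8% rose and 15.7% fell from 4 h to 8 h in fresh follicles, and 22% and 15% in vitrified ones. The shares of the first hour were 19% and 23.1% in fresh follicles, and 21.5% and 22% in vitrified ones. Akr1c13 was lower in vitrified follicles at 0 h (-2.79 ± 0.56, adjusted p = 0.00198) and Akr1c14 higher at 1 h (1.32 ± 0.34, adjusted p = 0.0360). Over all genes 0.967% and 0.555% were called at these times in either direction. At 1 h the calls over all genes went from 66 to 7 without vitrified replicate 4, and whether Akr1c14 stayed among them is not reported here.

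Across all 83 libraries the genes closest to each member by Pearson's r of log2(CPM + 1) were as follows, given as a description, since libraries share groups, plates and depth. Star was closest to Hs3st1 (0.968), Pakap (0.959) and Errfi1 (0.959), and Fdx1 was its nearest fellow member, 12th of 11888 genes (0.949). Fdx1 was closest to Atf4 (0.962), Slc7a1 (0.957) and Areg (0.957), an EGF-like factor. Scarb1 was closest to Hsp90ab1 (0.911), Ptgs2 (0.911), the prostaglandin synthase of ovulation, and Ptp4a2 (0.905). Hsd3b1 was closest to Hsd17b1 (0.950), the granulosa enzyme that makes estradiol, Bmpr1b (0.949) and Nap1l5 (0.933), and its r with Akr1b7 was -0.896. Fdxr was closest to Trim26 (0.876), Atg9a (0.849) and Scd1 (0.834), and Akr1b7 to A730049H05Rik (0.945), Gm6093 (0.944) and Snap25 (0.938). Cyp11a1 had the lowest top values, with Slc20a2 (0.691), Cst3 (0.682) and S100a11 (0.672).

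Within groups other genes stood closest to Star. After the mean of each group and plate was taken off, the 2 genes closest to Star among 11888 were Insl3 (r = 0.730) and Cyp17a1 (r = 0.695), both products of theca cells, a ranking computed after the data were seen and given with no test. Cyp17a1 was the third closest gene to Cyp11a1 (r = 0.629), after Aldh1a1 (0.674) and Cst3 (0.652). At 0 h Pearson's r between Star and Insl3 was 0.753 over the 18 fresh libraries (Spearman's rho 0.765) and 0.833 over the 15 vitrified ones (rho 0.811). It was 0.678 and 0.781 without the 2 libraries farthest from the median of Insl3. At later times, in sets of at least 6 libraries, it ran from 0.00823 (fresh 1 h, n = 6) to 0.849 (8 h on the vitrified-only plate, n = 9). Over the 7 vitrified libraries of 4 h it was 0.631, but -0.199 without the 2 farthest, so that it rests on those libraries. For Star and Cyp17a1 the r of these sets, 0 h included, was 0.553 to 0.95. Beside the higher Star of vitrified follicles at 0 h, Cyp17a1 averaged 161 ± 82.3 CPM in them against 69.8 ± 57.1 CPM in fresh ones, and Insl3 79.7 ± 78.5 against 32.8 ± 28.5 CPM (SD). Neither difference passed the test (1.21 ± 0.51, adjusted p = 0.335, and 1.25 ± 0.62, adjusted p = 0.446). Row H had 56.9, 167, 248, 212 and 61.7 CPM of Insl3, against 7.80 to 136 CPM in row G. For Cyp17a1 these rows had 93.0 to 278 CPM and 39.1 to 302 CPM. Without row H, r and the differences of these 2 genes were not computed. The whole theca and stroma list, with 15 of 15 genes in the table, took a mean of 0.171% of counts in fresh follicles (0.0363% to 0.335%) and 0.107% in vitrified ones (0.0329% to 0.264%). The part of theca cells in the Star result was not tested.

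**Figure D5:**
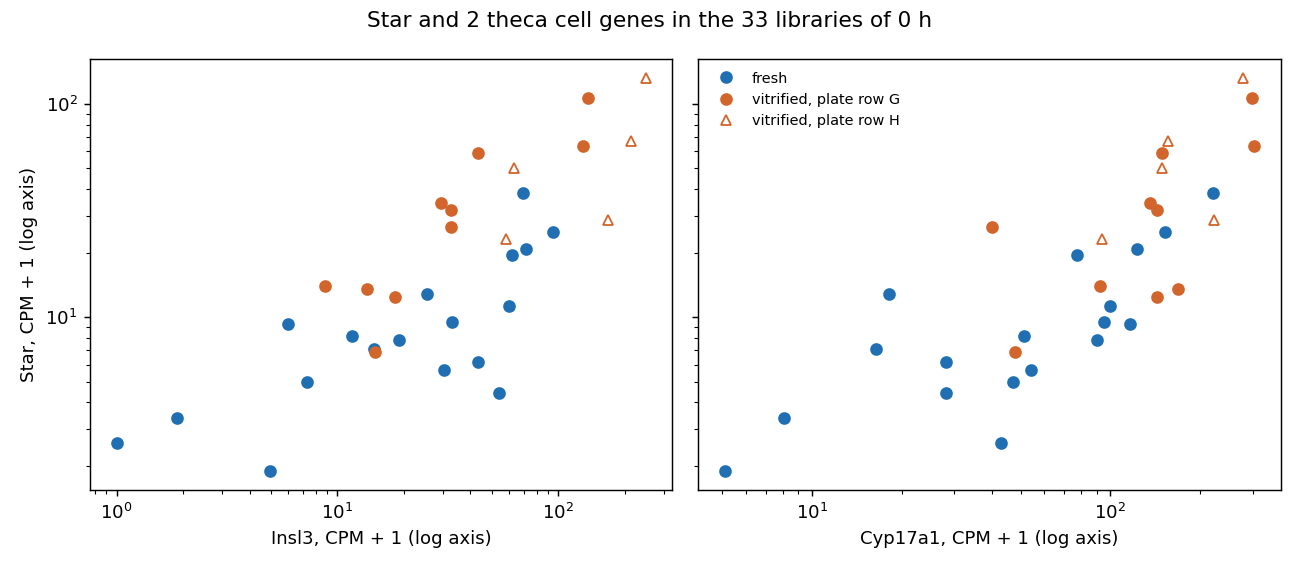
Star against Insl3 (left) and Cyp17a1 (right) in the 33 libraries of 0 h, as CPM + 1 on log axes, with 1 point per follicle. Libraries with more of either theca gene tended to have more Star in both kinds of follicle, and vitrified libraries reach 131 CPM of Star against 37.4 CPM in fresh ones.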

How the data were processed

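RNA of single follicles was made into cDNA by Smart-Seq2, which has no molecular identifiers, and into libraries with Nextera XT, which does not mark strand, per the labels' protocols. The authors deposited estimated counts per gene (17.2% of them not whole) and log2(TPM + 1) values. Per the submitters' processing notes the tools were Bowtie2, DESeq2, HISAT2 and Partek, and the genome build mm10. The treatment of reads that fit more than 1 gene was not stated in the sources used. Counts were rounded, filtered by edgeR's expression filter (minimum count 10), scaled by TMM and tested with edgeR 4.0.16 (R 4.3.3) in 1 model with a mean for each of 10 sets, the 8 groups with the vitrified-only plate apart, since a common plate term was known not to hold. The 17 comparisons used these means, and p-values were adjusted within each and read at 0.05. Differences at 1, 4 and 8 h lie within the shared plate, whose rows seem to come from more than 1 sample sheet. Alternatives were other scalings, DESeq2 1.42.0, no filter, other plate terms, limma 3.58.1 on the deposited log2 values, and leaving out libraries. The code was tested on simulated data.

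The members, pathway lists and motifs were chosen with earlier results of these data known. From each pathway list up to 4 genes were named, those with the largest called change among the steps between neighbouring times, and for each member the 3 genes closest in pattern. Further genes were named where they were called between vitrified and fresh follicles or are close copies of a member. Neither animals nor culture runs can be read from the labels. The p-values therefore rest on differences among follicles, part of which may be technical. Positions are from GENCODE vM21 (GRCm38). The largest correlation between 2 libraries was 0.972, and no 2 held identical values.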

Additional observations from a re-analysis of the deposited data

Results flagged for a closer look

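In sets of 4 to 10 libraries, the highest and the lowest value of each gene were compared with the rest by Dixon's gap test at the 95% level, in 49 sets, and 5 stood apart. Chance alone marks about 1 in 20 such sets. Star reached 21262 CPM in fresh 1 h replicate 2, where the next library had 13517 CPM. Fdx1 was lowest, at 2911 CPM, in fresh 4 h replicate 4. Scarb1 reached 17008 CPM in vitrified 4 h replicate 7, and its step from 1 h to 4 h passed the test only with that library. Akr1b7 had 617 CPM in replicate 7 of the vitrified 8 h libraries of the vitrified-only plate. In fresh 1 h replicate 6 it had 0.502 CPM, from the only count of that group. Where 1 library alone has a count, the gap equals the range. That flag was therefore fixed in advance, although it is among the 5.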

How the results depend on the processing

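No paired analysis was possible because the titles carry well and sample-sheet numbers of different follicles, not replicate numbers shared between groups. Of 41 member calls recomputed 530 times, 510 stayed called in their direction, 20 lost the call and 0 changed direction. The 41 include the calls of Akr1b7 between an early and a late time. Since these had to differ, their staying called is no support, and the counts without them are not given. The 2 members called between vitrified and fresh follicles at 0 h became 1 with total counts alone, with no low-count filter, without the vitrified-only plate, with only the compared sets, and without row H (chosen after seeing the data). It stayed 2 by limma on log2(TPM + 1) and log2(TPM + 0.1), but Fdx1 lost its call (adjusted p = 0.163 and 0.165) and Scarb1 gained one, lower in vitrified follicles (-0.53 and -0.55). At 8 h 0 became 1 with no plate term (Scarb1, higher in vitrified follicles). The plate difference at 8 h went from 0 to 1 with only the compared sets or limma on log2(TPM + 1), and ranged from 0 to 2 leaving out libraries. Leaving out each library in turn where a set had at most 5 gave 4 to 6 members called for fresh 4 h to 8 h, 4 to 5 for vitrified 0 h to 1 h and 1 h to 4 h, 4 for 4 h to 8 h, 5 to 6 for 1 h to 8 h on the shared plate, and 0 for vitrified minus fresh at 1, 4 and 8 h, the plate difference at 1 h and the step differences. Changes of sign all concerned values without a call as reported, and the cause was not tested. Cyp11a1 on the vitrified-only plate changed sign and was then called, as given below. Vitrified minus fresh at 0 h, Cyp11a1 was -0.058 with total counts alone, Fdxr -0.18 and -0.19 by limma on log2(TPM + 1) and log2(TPM + 0.1), and without row H Cyp11a1 was -0.26, Hsd3b1 0.0064, Scarb1 0.027 and Akr1b7 0. At 1 h Hsd3b1 was -0.044 by both limma fits. At 4 h it was -0.017 with total counts alone and -0.032 without vitrified replicate 7, and Star 0.010 with no filter and 0.12 by both limma fits. At 8 h Hsd3b1 was 0.11 with no plate term and -0.13 to 0.18 leaving out libraries, Star -0.16 to 1.67, Cyp11a1 -0.42 to 0.66 and Scarb1 -0.053 to 0.55. From 4 h to 8 h Hsd3b1 was 0.26 in fresh and 0.11 in vitrified follicles with total counts alone, and 0.40 and 0.21 by both limma fits. From 0 h to 1 h it was -0.34 in vitrified follicles with total counts alone. From 1 h to 8 h on the vitrified-only plate Cyp11a1 was 0.59 with total counts alone and 1.68 and 1.70, both called, by the limma fits. Leaving out libraries, the plate difference of Star at 8 h was -1.80 to 0.028, and the difference of its steps from 4 h to 8 h -0.15 to 1.67. Over all alternatives the count of all genes called between vitrified and fresh follicles was 60 to 1553 at 0 h (115 as reported), 3 to 251 at 1 h (66), 11 to 28 at 4 h (14) and 43 to 726 at 8 h (245), and that of the step differences 0 to 43 (19), 0 to 10 (5) and 7 to 246 (118). The plate differences gave 1 to 233 at 1 h (163) and 1177 to 3180 at 8 h (2779). Akr1b7 before 4 h rests on 0 to 5 counts a set, which limits its early values.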
